A study of Homo sapiens with 2 samples.

Results

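The 29 genes of cholesterol and fatty acid synthesis described here were taken by symbol: 18 enzymes that build cholesterol, 4 genes of its control and transport, and 7 enzymes of fatty acid synthesis. All 29 were listed in both deposited count tables, among 33694 genes. Single-cell 3′ RNA sequencing was done on cells derived from H9, an established human embryonic stem cell line, with 1 library from adherent cultures on Geltrex at day 10 of enteric neural crest induction (9627 cells) and 1 from crestospheres, free-floating spheres, at day 15 (6320 cells). Before day 10 the cells had received BMP4, SB431542 and CHIR 99021, and then retinoic acid. After day 12 they grew without attachment in a neurobasal medium with FGF2, CHIR 99021 and the N2 and B27 supplements. Neither library had a further treatment or a genetic change. Each library held cells of 2 independent biological repeats that the deposited labels do not separate, so each stage had 1 sample. The stage cannot be told apart from the library, its depth, the medium or the culture format, and no difference below has a replicate check.

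Values are in CPM, the UMIs of a gene per 1000000 UMIs of the same cells, where a UMI (unique molecular identifier) stands for 1 captured transcript. Intervals are exact 95% Poisson intervals of the counts and cover counting error only. For each log2 ratio 1 CPM was added to both levels, so that ratios of genes with few UMIs come out too small, and the gene had to reach a mean of 5 CPM in the cells compared. A 2-fold difference was the fixed size for naming a gene. Cell classes are those of the authors: enteric neural crest cells (ENCC), neuroepithelial progenitors (NEP), cranial placode (CP, with CP1 and CP2 at day 15), non-neural ectoderm (NNE) and mesenchymal cells (Mes). The classes were made by clustering the same counts, so differences between them are descriptions.

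Markers checked these names. SOX10 and ERBB3 were among the 10 leading genes of the ENCCs at both stages. WNT2B and PAX6 were among those of the day 10 NEP, NEUROD1 among those of CP and CP1, and TWIST1 and MSX1 among those of Mes. The day 10 NEP cells carried NNE markers too, which summed to 1387 CPM there, near the 1429 CPM of the NEP markers. The day 10 CP cells also carried ENCC markers, which summed to 597 CPM there, above the 398 CPM of the CP markers. In the day 10 ENCCs the ENCC markers summed to 704 CPM. In CP1 the ENCC markers summed to 142 CPM and the CP markers to 1219 CPM. No NNE marker was among the 10 leading genes of NNE, although the summed level of the 6 NNE markers was 5478 CPM there against 109.2 CPM in the ENCCs. The 104 cells labelled NEP at day 15 were led by EMX2, SFRP2 and ANXA1. KRT19 and KRT18, which are NNE markers, were also among their 10 leading genes, and none of the NEP markers was. The 43 cells labelled CP2 had PAX6, an NEP marker, and none of the CP markers among their 10 leading genes, beside PRPH, GNG3 and TAC1. The 4 neuronal markers summed to 6244 CPM there, the NEP markers to 724 CPM and the CP markers to 323 CPM, with 5 of 6 CP markers detected. In the day 15 ENCCs these 3 sums were 73.9, 119 and 12.7 CPM. The sets of 104 and 43 cells are called the cluster labelled NEP and the cluster labelled CP2 below. Kept cells numbered 7295 at day 10 and 5336 at day 15, with a median of 7101 and 11089 UMIs per cell. The libraries shared 102 cell barcodes, 1.61% of those at day 15. The median share of UMIs from ribosomal protein genes ran from 19.1% in the cluster labelled CP2 to 44.7% in the day 10 ENCCs, and it moves every CPM value of a class. Its part in the results was not tested, but totals without ribosomal and mitochondrial genes are given where they change a count.

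Cholesterol is built from acetyl-CoA through mevalonate, farnesyl diphosphate, squalene and lanosterol. Its genes and those of fatty acid synthesis are driven by the SREBP factors, which SREBF2 (chiefly the sterol branch) and SREBF1 (chiefly the fatty acid branch) encode. When membranes are rich in sterol, the INSIG proteins hold SREBP in the endoplasmic reticulum and these genes are expressed at lower levels. Dividing cells need both lipid classes for new membrane, and cholesterol also modifies Hedgehog ligands during development.

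The promoters of 4 members that the results turn on are shown: HMGCS1 and INSIG1, whose levels differed in opposite directions between stages, TM7SF2, whose level differed most between classes, and SREBF2, the only member with a match to the sterol regulatory element. They are RefSeq sequences on GRCh38.p14, 5′ to 3′ on the gene's strand, from 250 bases before to 50 bases after the start site. They lie at chr5:43313363-43313662 on the minus strand for HMGCS1, and on the plus strand at chr7:155297628-155297927 for INSIG1, chr11:65111622-65111921 for TM7SF2 and chr22:41832855-41833154 for SREBF2. Capitals mark matches to CCAAT, the box that the factor NF-Y binds, to GGGCGG, the box that Sp1 binds, and to TCACNCCAC, a short form of the sterol regulatory element, on either strand.
HMGCS1: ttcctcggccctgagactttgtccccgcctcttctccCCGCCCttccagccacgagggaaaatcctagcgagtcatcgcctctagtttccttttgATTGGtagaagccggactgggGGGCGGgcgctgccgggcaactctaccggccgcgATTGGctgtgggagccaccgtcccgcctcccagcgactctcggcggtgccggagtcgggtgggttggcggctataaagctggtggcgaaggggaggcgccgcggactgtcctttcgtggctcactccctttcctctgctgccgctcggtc
INSIG1: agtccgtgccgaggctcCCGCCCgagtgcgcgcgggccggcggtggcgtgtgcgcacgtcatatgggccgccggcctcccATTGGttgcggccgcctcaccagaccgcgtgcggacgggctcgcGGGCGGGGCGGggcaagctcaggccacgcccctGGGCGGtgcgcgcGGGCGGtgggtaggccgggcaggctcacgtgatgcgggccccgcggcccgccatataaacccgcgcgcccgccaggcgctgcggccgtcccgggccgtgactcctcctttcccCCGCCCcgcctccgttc
TM7SF2: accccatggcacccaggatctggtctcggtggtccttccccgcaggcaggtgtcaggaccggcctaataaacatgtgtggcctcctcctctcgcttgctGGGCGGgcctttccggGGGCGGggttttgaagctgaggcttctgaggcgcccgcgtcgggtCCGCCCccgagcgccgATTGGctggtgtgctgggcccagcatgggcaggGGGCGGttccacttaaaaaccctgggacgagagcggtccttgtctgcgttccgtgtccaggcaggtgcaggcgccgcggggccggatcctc
SREBF2: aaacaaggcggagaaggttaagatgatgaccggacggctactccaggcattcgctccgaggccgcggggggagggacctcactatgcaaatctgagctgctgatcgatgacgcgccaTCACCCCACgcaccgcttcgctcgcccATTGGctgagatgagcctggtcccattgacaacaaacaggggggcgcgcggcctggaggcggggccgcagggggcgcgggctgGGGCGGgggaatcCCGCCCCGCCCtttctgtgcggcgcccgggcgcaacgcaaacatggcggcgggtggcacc

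The SREBF2 promoter held TCACNCCAC 133 bases before its start site. The HMGCS1 promoter held CCAAT 2 times and GGGCGG 2 times, the INSIG1 promoter 1 and 6 times, and the TM7SF2 promoter 1 and 4 times. Promoters were given for 25 of the 29 members. CCAAT was found in 20 of these 25 (80%) and in 39.7% of all genes with a promoter, and GGGCGG in 24 of 25 (96%) and in 48.3% of all genes. TCACNCCAC was found in 1 of 25 (4%) and in 1.39% of all genes. A match is a description of letters, not a binding site. In the GENCODE v29 annotation of GRCh38, 8 members overlap another protein-coding gene, among them FADS1 with FADS2 on opposite strands and TM7SF2 with VPS51 on the same strand. FDPS, CYP51A1, HSD17B7, SCD and FADS2 have named pseudogene copies, and of these 5 CYP51A1 and FADS2 are also among the 8. How reads over such stretches were counted is not given in the sources used here, so the counts of these genes are uncertain to that extent.

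The first comparison was between the stages within ENCCs, with 4921 cells at day 10 and 4934 at day 15. These include 256 cells at day 10 and 27 at day 15 outside the numbered subclusters, whose deposited subcluster label is Non-NC. They count as ENCCs in the class comparisons too. The members were lower at day 15. Their summed level went from 1931 CPM (1917 to 1945) in the day 10 cells to 1217 CPM (1208 to 1226) in the day 15 cells, a ratio of 0.630. Of the 28 members that passed the filter, 26 had a log2 ratio below 0, with a median of -0.56 against -0.13 over all 8692 genes tested. Past 2-fold, 9 members were lower, where 5.03% of all genes were, and 0 were higher, where 7.43% of all genes were. TM7SF2 and SREBF1, among the 9, were under 5 CPM at day 15 and passed the filter through their day 10 level. CYP51A1 was the member below the filter, at 3.09 CPM at day 10 and 2.54 CPM at day 15. With TMM scaling 6 members were lower past 2-fold, where 299 of 8688 genes were. The median over all genes moved to 0.05 and that of the members to -0.38.

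**Figure D1:**
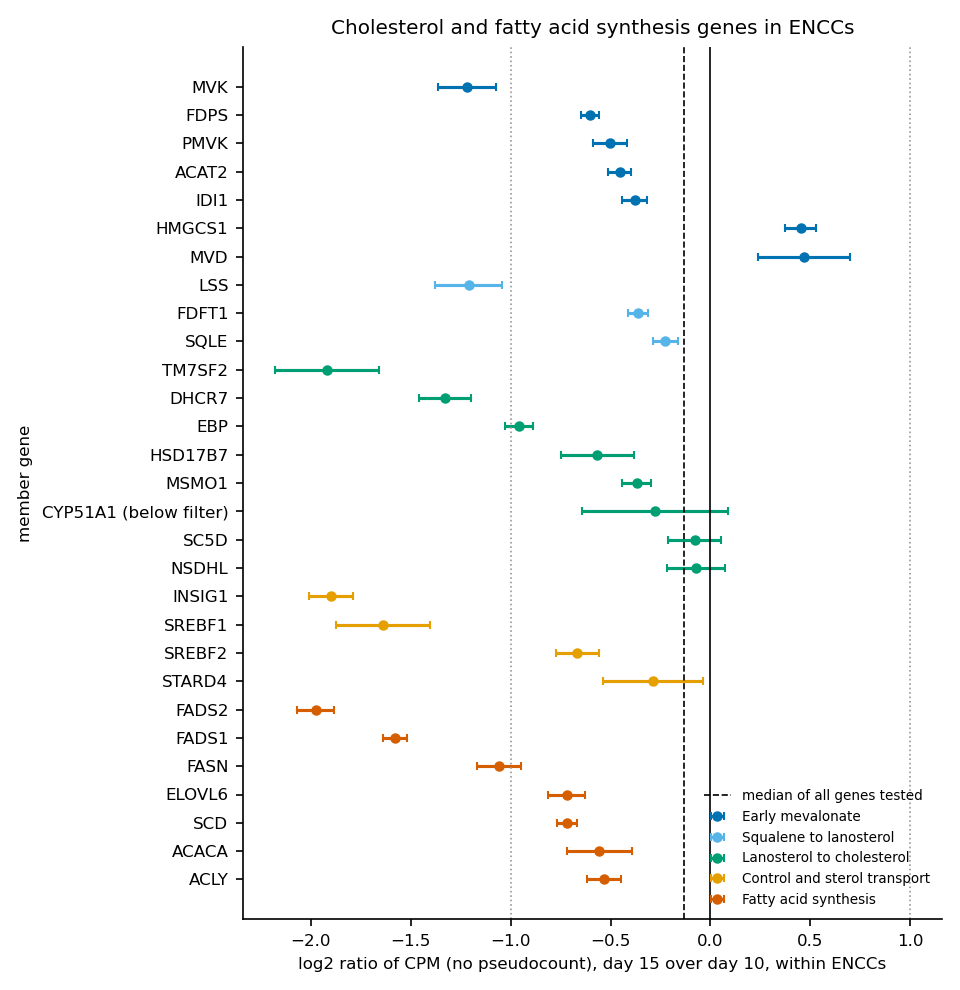
Log2 ratio of CPM without a pseudocount, day 15 over day 10, for the 29 members within ENCCs, coloured by role. Points are ratios of 1 library to 1 library, bars are exact 95% counting intervals, dotted lines mark 2-fold and the dashed line is the median of all genes tested (-0.13). HMGCS1 and MVD lie to the right of 0 and FADS2, TM7SF2 and INSIG1 farthest to the left.

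Among the 7 genes of the early mevalonate steps, MVK, which phosphorylates mevalonate, had the lowest ratio, at 27.5 CPM in the day 10 cells and 11.8 CPM in the day 15 cells (log2 -1.15). HMGCS1, the synthase that makes HMG-CoA, had the highest, at 55.7 and then 76.2 CPM (log2 0.45), and its ratio of 1.37 had an interval of 1.30 to 1.44. MVD, the mevalonate diphosphate decarboxylase, was also higher at day 15, at 6.39 and then 8.83 CPM. These 2 genes were the members with a positive ratio. The other 4, ACAT2, PMVK, IDI1 and FDPS, had log2 ratios from -0.60 to -0.37. FDPS, the farnesyl diphosphate synthase, was at 232 and then 153 CPM.

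The steps from squalene to lanosterol showed the same direction in 3 of 3 genes. LSS, which closes squalene epoxide into lanosterol, was at 20.2 CPM at day 10 and 8.74 CPM at day 15 (log2 -1.12). SQLE, the squalene epoxidase, differed least, at 101 and 86.1 CPM (log2 -0.22). FDFT1, the squalene synthase, lay between them at log2 -0.36.

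Of the 8 genes from lanosterol to cholesterol, 7 passed the filter and all 7 had a ratio below 0. TM7SF2, a sterol C14 reductase, was at 11.8 CPM at day 10 and 3.12 CPM at day 15 (log2 -1.63, 435 and 174 UMIs). Its day 10 level includes the cells labelled Non-NC, where it was higher than in the numbered ENCCs, as given below. DHCR7, which carries out the final reduction to cholesterol, was at 34.2 and then 13.6 CPM (log2 -1.27). EBP, the sterol isomerase, fell just short of 2-fold at 105 and 53.9 CPM (log2 -0.95). NSDHL and SC5D had log2 ratios of -0.07 and -0.08, and the intervals of the 2 stages overlapped for both. The later part of the pathway held members with near-equal levels beside members more than 2-fold lower.

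The control genes differed more. INSIG1, the sterol-sensing anchor of SREBP, was at 64.0 CPM at day 10 and 17.2 CPM at day 15, a ratio of 0.268 (0.249 to 0.289). SREBF1 was at 12.5 and then 4.01 CPM (log2 -1.43), and SREBF2 at 38.6 and then 24.4 CPM (log2 -0.65). STARD4, which carries sterol between membranes, differed least of the 4, at 6.58 and 5.39 CPM.

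All 7 genes of fatty acid synthesis had a ratio below 0. FADS2, the delta-6 desaturase of polyunsaturated fatty acids, was at 90.5 CPM at day 10 and 23.0 CPM at day 15 (ratio 0.254, 0.238 to 0.271), the lowest ratio of the 29. FADS1, the delta-5 desaturase, was at 187 and then 62.7 CPM (ratio 0.335, 0.321 to 0.349). FASN, the fatty acid synthase, was at 44.5 and then 21.4 CPM (log2 -1.02). The remaining 4, ACLY, ACACA, SCD and ELOVL6, had log2 ratios from -0.71 to -0.52. SCD, which makes monounsaturated fatty acids, was at 169 and then 103 CPM.

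The summed level of fatty acid synthesis was 626 CPM at day 10 and 298 CPM at day 15, and that of the 18 sterol enzymes 1183 and 868 CPM. The fatty acid genes took a smaller part of the members' UMIs at day 15. Each cell was also thinned to 3000 UMIs so that both stages had the same depth. The mean share of a cell's UMIs that came from the 29 members was then 0.193% at day 10 and 0.122% at day 15. A cell held UMIs of a median of 5 members at day 10 and 3 at day 15, and 45 of 4919 and 376 of 4934 cells had no member UMI. At this depth a UMI of INSIG1 was found in 17.0% of the day 10 ENCCs (15.9 to 18.03%, exact Clopper-Pearson) and in 5.03% of the day 15 ENCCs (4.43 to 5.67%). For HMGCS1 the shares were 14.4% (13.5 to 15.4%) and 20.1% (19.0 to 21.3%). Without thinning they were 34.8% and 16.7% for INSIG1 and 30.9% and 48.8% for HMGCS1. No class here is known to lack these genes, so no background share from free RNA could be set beside them.

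ENCCs are dividing cells, and phase labels were compared at each stage. Phase calls gave 39.0% of the day 10 ENCCs and 34.7% of the day 15 ENCCs as G1. The summed level of the members was 1841 CPM in G1, 1887 CPM in S and 2069 CPM in G2M at day 10. At day 15 it was 1062, 1338 and 1205 CPM. Every phase was lower at day 15 than the lowest phase at day 10. In G1 cells alone the ratio between stages was 0.577.

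Over whole libraries, removed cells included, the same comparison gave a smaller difference. The summed level was 1757 CPM at day 10 and 1398 CPM at day 15. Past 2-fold, 4 of 28 members were lower (all genes 7.47%): TM7SF2, INSIG1, FADS1 and FADS2. HMGCS1 was higher past 2-fold (all genes 7.71%), at 49.9 and then 106.2 CPM, a ratio of 2.13 (2.05 to 2.21). In the other roles the ratio was highest for SQLE (log2 0.17), NSDHL (0.15), STARD4 (-0.25) and ACLY (0.02), and lowest for MVK (-0.80) and LSS (-0.39). With the kept cells alone 0 members were higher past 2-fold and 6 were lower, where 723 of 9065 genes were lower. The members' median was then -0.53 against -0.17 over all genes, and with all cells it was -0.36 against -0.14. The whole libraries differ in their classes, since 1811 NEP cells were kept at day 10 and 104 at day 15.

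Within the day 10 library, the 1811 NEP cells had lower levels than the ENCCs for most members. Their summed level was 1313 CPM (1294 to 1332). Of 27 members that passed the filter, 22 had a ratio below 0, and the median was -0.63 against 0.16 over all 9282 genes tested. Past 2-fold, 2 were lower (all genes 2.45%) and 2 higher (all genes 11.7%). Those lower were ACAT2, the thiolase of the first step, with 49.7 CPM in NEP and 129 CPM in the ENCCs, and MVK, with 10.3 and 27.5 CPM. The genes of the squalene steps were all lower, from SQLE (51.1 and 101 CPM, log2 -0.97) to LSS (13.0 and 20.2 CPM, log2 -0.60). The higher genes were TM7SF2, with 64.4 CPM against 11.8 CPM, and STARD4, with 18.3 against 6.58 CPM. PMVK, SC5D and ACACA had small positive log2 ratios of 0.16, 0.17 and 0.27. HMGCS1 and INSIG1 were at 30.5 and 33.7 CPM, below their ENCC levels. ACLY had the lowest ratio of the fatty acid genes (log2 -0.81) and NSDHL that of the later sterol genes (log2 -0.58). With TMM scaling 9 members were lower past 2-fold and 2 higher, where 488 and 760 of 9248 genes were. Over all genes the higher share of calls moved from 82.7% to 60.9%. The members' median lay 0.79 below that of all genes with CPM and 0.80 below it with TMM.

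CP and NNE stood near the ENCCs at day 10. The summed level was 2194 CPM (2137 to 2253) in the 324 CP cells and 2085 CPM (2020 to 2152) in the 239 NNE cells. In CP 20 of 28 members had a ratio above 0, the median was 0.19 against 0.02 for all genes, and 2 were past 2-fold higher (all genes 5.17%) and 0 lower (all genes 2.06%). These 2 were TM7SF2 at 26.7 CPM and STARD4 at 20.3 CPM. ACLY, which makes cytosolic acetyl-CoA from citrate, was next, at 124 CPM in CP and 62.7 CPM in the ENCCs (log2 0.97). SREBF1 was at 22.7 and 12.5 CPM. ACACA, the acetyl-CoA carboxylase, had the lowest ratio, at 9.97 and 17.0 CPM (log2 -0.71). In the other roles the ratios of CP were highest for HMGCS1 (log2 0.46) and LSS (0.28) and lowest for MVK (-0.24), SQLE (-0.31), EBP (0.06) and SREBF2 (0.11). In NNE the same 2 genes were past 2-fold higher of 27 (all genes 12.9%), TM7SF2 at 99.7 CPM and STARD4 at 29.2 CPM, and 0 were lower (all genes 4.49%). MVK (14.1 and 27.5 CPM) and ACLY (37.9 and 62.7 CPM) had the lowest ratios there. HMGCS1, at 55.8 CPM, was level with the ENCCs, and LSS (log2 -0.09), SQLE (-0.19), HSD17B7 (0.15) and SREBF2 (-0.24) differed little. SCD was at 244 CPM and FASN at 66.6 CPM, above the 169 and 44.5 CPM of the ENCCs. The higher share of calls over all genes moved with TMM from 71.5% to 62.8% in CP and from 74.2% to 57.8% in NNE, where 1 member was then lower. For that NNE count 661 of 9194 genes were lower with TMM. In G1 cells alone 4 of 28 members were higher past 2-fold in CP and 1 lower, where 537 and 243 of 8756 genes were.

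**Figure D2:**
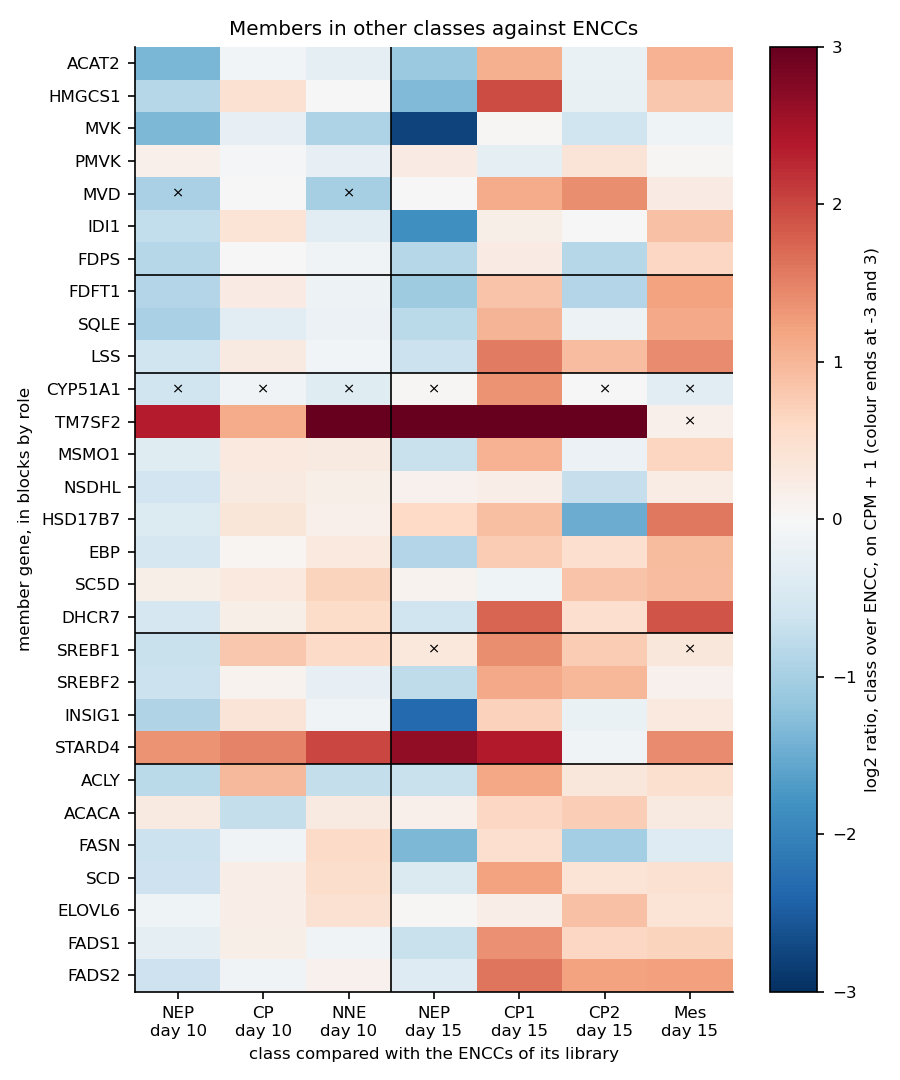
Log2 ratio on CPM + 1 of each member in each other class over the ENCCs of the same library, with members in blocks by role. Red is higher and blue lower than in ENCCs, the colour ends at -3 and 3, and a cross marks a pair below the filter of 5 CPM. The TM7SF2 and STARD4 rows are red in all 3 other classes of day 10 and the CP1 column is red in most rows.

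At day 15 the 208 CP1 cells, led by NEUROD1 and SST among other genes, had the highest summed level of any class, 2428 CPM (2366 to 2492), against 1217 CPM in the ENCCs. All 29 members passed the filter, and 27 had a ratio above 0. Past 2-fold, 16 were higher, where 14.8% of all genes were, and 0 lower, where 6.1% of all genes were. Of the 16, CYP51A1, TM7SF2 and SREBF1 were under 5 CPM in the ENCCs and passed the filter only through their CP1 level, so the count is a description. The median was 1.04 against 0.20 over 9105 genes. With TMM scaling 8 of 28 were higher past 2-fold, where 892 of 9099 genes were. With totals without ribosomal and mitochondrial genes 9 of 29 were, where 1196 of 10467 genes were. Over all genes the higher share of calls moved from 70.8% to 48.2% with TMM. The median of the members lay 0.85 above that of all genes with CPM and 0.83 above it with TMM. The list of 4 neuronal markers summed to 9465 CPM in CP1 and 73.9 CPM in the ENCCs, and the share of G1 cells was 78.8% and 34.7%. In G1 cells alone 19 of 29 members were higher past 2-fold, where 1597 of 9009 genes were, and 0 were lower. The median was then 1.27 against 0.28 over all genes. The part of the neuronal markers and of the phase in the difference was not tested.

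Among the early genes, HMGCS1 was at 296 CPM in CP1 and 76.2 CPM in the ENCCs (ratio 3.89, 3.59 to 4.22). After thinning, 57.2% of the CP1 cells (50.2 to 64.0%) had a UMI of HMGCS1, and without thinning 90.9%. ACAT2 was at 200 and 94.3 CPM (log2 1.07), and MVD at 20.1 and 8.83 CPM. PMVK, the kinase after MVK, was the lowest of this role, at 35.2 and 43.6 CPM. The early steps were uneven, with a median log2 ratio of 0.24.

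Of the squalene genes, LSS was at 27.6 CPM in CP1 and 8.74 CPM in the ENCCs (log2 1.56). SQLE was at 176 and 86.1 CPM (log2 1.02), and FDFT1 was the smallest at 226 and 125 CPM (log2 0.85). Among the later sterol genes TM7SF2 was at 47.3 and 3.12 CPM (log2 3.55). DHCR7 was at 47.7 and 13.6 CPM (log2 1.74), CYP51A1, the lanosterol demethylase, at 7.95 and 2.54 CPM, and MSMO1, the C4 sterol methyl oxidase, at 128 and 61.7 CPM. SC5D was the lowest of the role, at 18.4 and 20.3 CPM, with overlapping intervals.

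In the control group STARD4 was at 32.2 CPM in CP1 and 5.39 CPM in the ENCCs (log2 2.38), SREBF1 at 12.1 and 4.01 CPM, and SREBF2 at 54.4 and 24.4 CPM. INSIG1 had the smallest ratio of the 4, at 28.5 and 17.2 CPM (log2 0.70). Of the fatty acid genes FADS2 was at 72.4 and 23.0 CPM, FADS1 at 163 and 62.7 CPM, SCD at 237 and 103 CPM, and ACLY at 97.5 and 43.3 CPM. ELOVL6, which elongates palmitate, was the smallest at 38.5 and 33.4 CPM (log2 0.20), with overlapping intervals. For comparison, FADS1 and FADS2 were at 187 and 90.5 CPM in the day 10 ENCCs, above both day 15 classes.

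The 47 Mes cells were also above the ENCCs, at 2133 CPM (2014 to 2257). Past 2-fold, 8 of 26 members were higher (all genes 7.44%) and 0 lower (all genes 4.68%), with a median of 0.65 against 0.19. All 3 squalene genes were among them: FDFT1 at 287 CPM against 125 CPM, SQLE at 189 against 86.1 CPM and LSS at 24.97 against 8.74 CPM. DHCR7 was at 53.5 CPM against 13.6 CPM (30 UMIs), HSD17B7, a sterol ketone reductase, at 28.5 against 8.86 CPM (16 UMIs), and ACAT2 at 196 against 94.3 CPM. FADS2 was at 55.3 against 23.0 CPM and STARD4 at 16.1 against 5.39 CPM (9 UMIs). FASN had the lowest ratio, at 16.1 and 21.4 CPM (log2 -0.39), with overlapping intervals. MVK (log2 -0.13), NSDHL (0.23) and SREBF2 (0.13) had the lowest ratios of their roles. TM7SF2 was at 3.57 CPM in Mes, a count of 2 UMIs, so unlike in the other classes no difference from the ENCCs was detectable at this depth. With TMM scaling 4 members were higher past 2-fold, where 352 of 8697 genes were. Over all genes the higher share of calls moved from 61.4% to 32.8%.

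The cluster labelled NEP at day 15, of 104 cells, had the lowest summed level of the classes, 839 CPM (786 to 893). Past 2-fold, 7 of 27 members were lower (all genes 5.6%) and 2 higher (all genes 19.3%), with a median of -0.66 against 0.30. The lower genes of the early steps were IDI1, the isopentenyl diphosphate isomerase, with 21.8 against 80.2 CPM, HMGCS1 with 29.6 against 76.2 CPM, ACAT2 with 42.7 against 94.3 CPM, and MVK with a count of 1 UMI and a ratio of 0.0737 (0.00186 to 0.412). FDFT1 was at 59.3 against 125 CPM, FASN at 7.85 against 21.4 CPM, and INSIG1 had 3 UMIs and a ratio of 0.152 (0.0313 to 0.446). The higher genes were again TM7SF2, at 77.6 against 3.12 CPM, and STARD4, at 39.2 against 5.39 CPM. Of these 9, MVK, INSIG1 and TM7SF2 were under 5 CPM in the lower of the 2 sets and passed the filter only through the other. With TMM scaling 16 members were lower past 2-fold, where 1338 of 9345 genes were. With totals without ribosomal and mitochondrial genes 11 were, where 1135 of 10862 genes were. Over all genes the higher share of calls moved from 77.6% to 42.3% with TMM. The members' median lay 0.96 below that of all genes in both scalings. PMVK (log2 0.23) and ACACA (0.16) had the highest ratios of their roles, as did LSS (-0.64), while EBP (-0.88) had the lowest of the later sterol genes. This cluster carried all 5 NEP markers with a UMI, but the NNE markers summed to 941 CPM against 319 CPM for the NEP markers. The same 2 sums were 1387 and 1429 CPM in the day 10 NEP, and 11.5 and 119 CPM in the day 15 ENCCs.

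The cluster labelled CP2, of 43 cells and 401995 UMIs, was at 1410.5 CPM (1297 to 1531). Past 2-fold, 4 of 28 members were higher (all genes 33.2%) and 2 lower (all genes 12.6%), fewer in share than all genes for the higher calls. TM7SF2 was at 132 CPM against 3.12 CPM (53 UMIs), MVD at 24.9 against 8.83 CPM (10 UMIs), FADS2 at 54.7 against 23.0 CPM and SREBF2 at 49.8 against 24.4 CPM. HSD17B7, with 1 UMI (ratio 0.281, 0.00709 to 1.57), and FASN, with 4 UMIs, were the lower ones, and both intervals overlapped those of the ENCCs. TM7SF2 and HSD17B7 passed the filter only through the set where they were higher. FDPS (log2 -0.84) and FDFT1 (-0.88) had the lowest ratios of their roles, LSS (0.92) had the highest of the squalene genes and INSIG1 (-0.19) the lowest of the control genes. With TMM scaling 1 member was higher and 6 lower, where 1631 and 2608 of 9648 genes were. Over all genes the higher share moved from 72.6% to 38.5%, so no direction is given for this cluster.

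**Figure D3:**
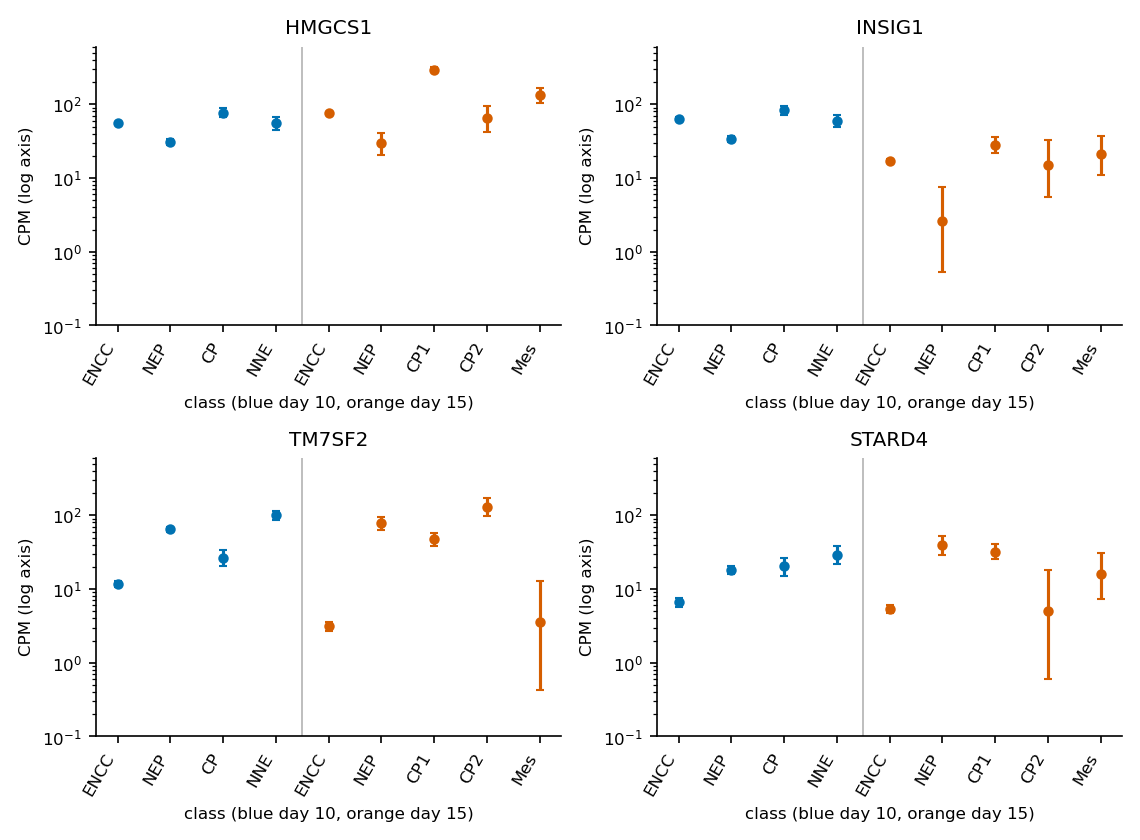
CPM of HMGCS1, INSIG1, TM7SF2 and STARD4 in each class on a log axis, with day 10 in blue and day 15 in orange. Points are sums over the cells of a class in 1 library and bars exact 95% Poisson intervals. TM7SF2 is lowest in the ENCCs of each library, with the interval of Mes overlapping, HMGCS1 is highest in CP1 at 296 CPM, and INSIG1 is lower in each day 15 class than in the day 10 ENCCs.

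TM7SF2 and STARD4 were the members past 2-fold higher in cells labelled NEP at both stages, where most other members were lower. The order of TM7SF2 was 11.8 CPM in the ENCCs, 26.7 in CP, 64.4 in NEP and 99.7 in NNE at day 10, with no overlap between neighbours. At day 15 the order was 3.12 CPM in the ENCCs, 3.57 in Mes, 47.3 in CP1, 77.6 in the cluster labelled NEP and 132 in the cluster labelled CP2, and the first 2 did not differ beyond counting error. Within the day 10 ENCCs the 256 cells outside the numbered subclusters, labelled Non-NC, held 56.01 CPM of TM7SF2, against 8.91 CPM in the 4665 numbered cells. Since TM7SF2 overlaps VPS51 on the same strand, part of these counts may belong to either gene. STARD4 was at 6.58 CPM in the ENCCs, 18.3 in NEP, 20.3 in CP and 29.2 in NNE at day 10, where the intervals of NEP and CP and of CP and NNE overlapped. Without these 2 genes the sum of the members was 1230.45 CPM in NEP and 1913 CPM in the ENCCs at day 10.

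The authors divided the ENCCs into 4 numbered subclusters at each stage, and each was compared with the other 3 together. At day 10 the summed level of the members ran from 1877 CPM (1821 to 1934) in ENCC 3 to 2146 CPM (2069 to 2224) in ENCC 4, and these 2 intervals do not overlap. Past 2-fold in either direction, 0 of 28 members differed in ENCC 1 (all genes 0.782%), 0 of 28 in ENCC 2 (all genes 1.13%), 1 of 27 in ENCC 3 (all genes 2.89%) and 1 of 28 in ENCC 4 (all genes 3.32%). In both it was TM7SF2, with 3.12 CPM in the 348 cells of ENCC 3 (7 UMIs) and 19.5 CPM in the 187 cells of ENCC 4 (27 UMIs). In the ENCC 3 comparison TM7SF2 passed the filter only through the other numbered cells, so that count is a description. HMGCS1 was at 73.3 CPM in ENCC 2 and 51.7 CPM in the others. INSIG1 was at 99.9 CPM in ENCC 4 and 63.9 CPM in the others, and at 44.1 CPM in ENCC 3 and 66.8 CPM in the others.

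At day 15 ENCC 2′, the largest with 2377 cells, was at 1369.6 CPM (1356 to 1384), above ENCC 1′ at 1102 CPM (1087 to 1117) and ENCC 3′ at 1077 CPM (1055 to 1100). In ENCC 2′ 25 of 26 members had a ratio above 0, but 0 were past 2-fold (all genes 0.941%). In ENCC 1′ (0 of 26, all genes 0.987%) and ENCC 3′ (0 of 26, all genes 1.25%) no member was past 2-fold either. There 24 of 26 and 17 of 26 members had a ratio below 0. MVK and IDI1 had the highest ratios in ENCC 2′, both at 0.65, with IDI1 at 98.8 CPM against 62.8 CPM. ACAT2 was the lowest of ENCC 3′, at 62.0 CPM against 99.9 CPM. In G1 cells alone 4 of 26 members were higher past 2-fold in ENCC 2′, where 95 of 8297 genes were. In ENCC 1′ 2 of 26 were then lower, where 48 of 8253 genes were.

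ENCC 4′ stood apart, with 138 cells and a summed level of 664 CPM (623 to 706). Past 2-fold, 11 of 25 members were lower, where 1005 of 8251 genes were lower and 16.1% of all genes differed in either direction. The median was -0.94 against -0.23. The 11 included genes of all 5 roles, and DHCR7, MVK and HSD17B7 passed the filter only through the other numbered cells. DHCR7 was at 2.64 CPM against 13.8 CPM (4 UMIs), MVK at 3.30 against 12.1 CPM (5 UMIs) and HSD17B7 at 3.30 against 8.98 CPM (5 UMIs). FDPS was at 59.4 against 155 CPM, ACAT2 at 35.6 against 96.0 CPM, IDI1 at 31.7 against 81.5 CPM, SQLE at 35.0 against 87.7 CPM and HMGCS1 at 34.3 against 76.9 CPM. INSIG1 was at 5.94 against 17.4 CPM, FADS1 at 25.1 against 63.7 CPM and FADS2 at 7.26 against 23.5 CPM. TM7SF2 had 0 UMIs in ENCC 4′, which allows up to 1.98 CPM. In ENCC 4′ 86.2% of the cells were in G1, against 34.6% of all numbered cells, and its median ribosomal share was 48.0%. In G1 cells alone 11 of 24 members were lower past 2-fold in ENCC 4′, with a median of -0.91 against -0.17 over all genes. Over all day 15 subclusters the pairs of a member and a subcluster past 2-fold numbered 17 in G1 cells, against 11 with all phases. The added pairs lay in ENCC 1′ and ENCC 2′.

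**Figure D4:**
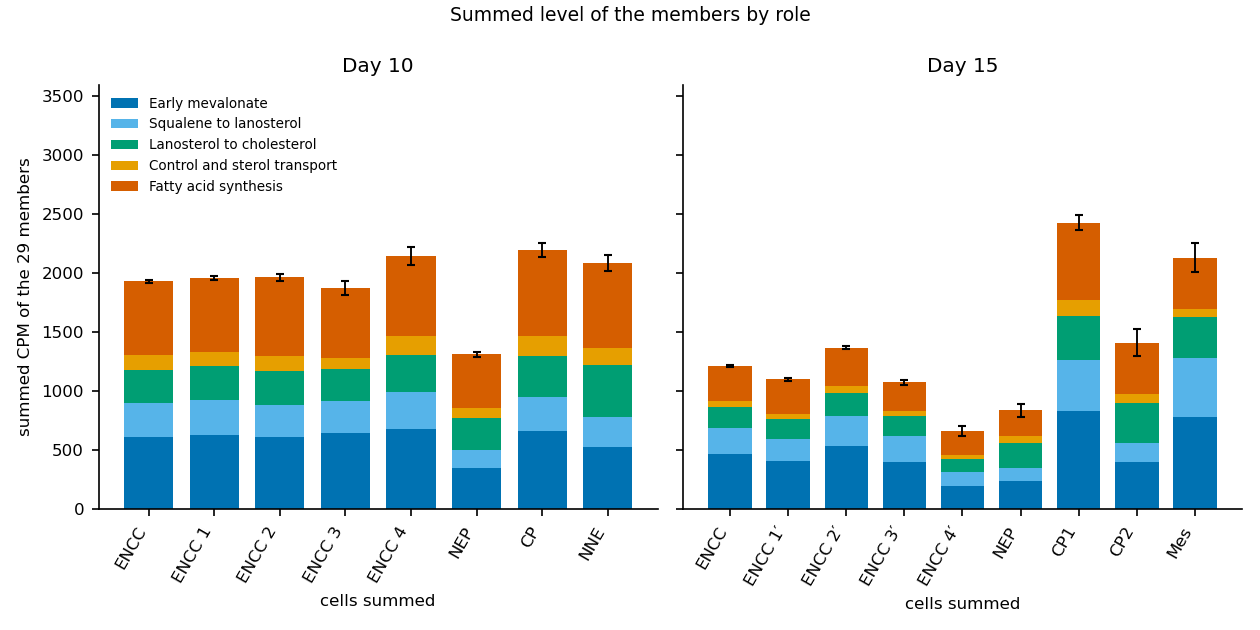
Summed CPM of the 29 members, stacked by role, in the ENCCs, their numbered subclusters and the other classes of each library. The black bars are exact 95% Poisson intervals of the total. ENCC 4′ at 664 CPM and the cluster labelled NEP at 839 CPM are the lowest and CP1 at 2428 CPM the highest of day 15, while the day 10 subclusters lie between 1877 and 2146 CPM.

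Related genes outside the 29 were counted from a list of fatty acid supply, elongation and binding and a list of sterol efflux, storage and LXR. Between the stages within ENCCs, 1 of 12 genes of the fatty acid list was higher past 2-fold and 1 lower, and 0 of 7 genes of the efflux list were higher and 1 lower. In the third list 0 of 9 genes were higher and 0 lower. Of these 9 genes 5 had a ratio above 0 and 4 below, with a median of 0.01 against -0.13 over all genes. Over all genes the shares were 7.43% higher and 5.03% lower. SLC25A1, the mitochondrial citrate carrier, was the higher gene, at 10.3 CPM at day 10 and 22.1 CPM at day 15. ELOVL5, an elongase of polyunsaturated fatty acids, was lower, at 118 and 53.2 CPM, and LPCAT3, which remodels phospholipids, was at 16.6 and 5.01 CPM.

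In the cluster labelled NEP at day 15, 5 of 9 genes of the efflux list were higher past 2-fold than in the ENCCs, where 19.3% of all genes were, and 0 lower, where 5.6% of all genes were. They were ABCA1, a cholesterol exporter, at 30.5 and 0.591 CPM, MYLIP, a ubiquitin ligase, at 28.8 and 3.49 CPM, NPC2, a lysosomal sterol carrier, at 518 and 236 CPM, NR1H2, which encodes a form of LXR, at 13.9 and 5.16 CPM, and LPCAT3 at 13.1 and 5.01 CPM. LXR is a sterol-activated receptor, and ABCA1 and MYLIP are known targets of it. ABCA1 and MYLIP passed the filter only through their level in this cluster, so the count is a description. In the fatty acid list 1 of 13 was higher, SCD5, a desaturase, at 35.7 and 6.52 CPM, and 3 were lower. The lower ones were the fatty acid binding proteins FABP5 (119 and 310 CPM) and FABP7 (6.10 and 24.1 CPM) and ACSS2, which makes acetyl-CoA from acetate, with 4 UMIs in this cluster. ACSS2 passed the filter only through its level in the ENCCs.

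In CP1 2 of 8 genes of the efflux list were higher past 2-fold (all genes 14.8%) and 1 lower (all genes 6.1%), and the list's median was -0.08 against 0.20. ABCA1 and MYLIP were the higher ones, at 17.2 and 22.2 CPM, again through the filter only by their CP1 level, and NPC2 was lower, at 74.5 CPM against 236 CPM. In the fatty acid list 2 of 14 were higher, a share near the 14.8% of all genes. They were ELOVL4, which elongates very long chains, at 23.4 and 1.54 CPM, and SCD5 at 34.3 and 6.52 CPM. ELOVL4 too passed the filter only through its CP1 level, so the count is a description. FABP7 was lower, at 6.28 and 24.1 CPM.

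In ENCC 4′ 2 of 12 genes of the fatty acid list were lower past 2-fold, where 1005 of all 8251 genes were lower, so the count is a description. They were HACD3, a dehydratase of chain elongation, at 50.1 CPM against 104 CPM in the other numbered ENCCs, and FABP5 at 130 against 315 CPM. Of the 5 efflux genes that passed the filter 0 were past 2-fold. INSIG2, the other INSIG anchor, was chosen after its values were seen. It was at 148 CPM in ENCC 4′ against 53.6 CPM, at 94.5 CPM in ENCC 1′ and at 29.1 CPM in ENCC 2′, while INSIG1 was at 14.3 and 20.3 CPM in the latter 2.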

How the data were processed

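Single-cell 3′ libraries (Chromium Next GEM kit v3.1, 10x Genomics) were made from 2 samples. According to the methods, the authors obtained the matrices with kallisto and bustools and separated hashtagged samples in Seurat, while the submitters' processing notes name Cell Ranger, Seurat 4.0.4 and GRCh38; the annotation is not given in the sources used here. The authors deposited raw UMI counts per gene and cell, whole numbers without normalization. The deposited metadata give UMI and gene counts, a mitochondrial and a ribosomal percent, a novelty score that was not used here, a cell cycle phase, a class and a subcluster of each cell, and mark the cells the authors removed on genes, UMIs and mitochondrial percent. Clusters were made by the authors in each library separately, with depth, the shares of mitochondrial and ribosomal UMIs and the phase scores regressed out.

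Counts of the cells of a class were summed and divided by their total to give CPM. The totals were 70488169 UMIs at day 10 and 84976253 UMIs at day 15, with a median of 6713 and 11770.5 per cell, so that a count of 0 in a whole library allows up to 0.0426 and 0.0353 CPM (3 UMIs). Sums carry exact Poisson and shares exact Clopper-Pearson 95% intervals, which cover counting error only. With 1 library per group no test was made and no p-value is given; differences have no replicate check. Genes with a mean of at least 5 CPM entered a comparison, with a pseudocount of 1 CPM. All deposited cells entered whole libraries and kept cells the classes. Doublets were not called here, beyond the authors' upper limits on genes and UMIs. Ratios were tested on simulated data with known folds.

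The members and lists were chosen with earlier results of these data known. Named with values were the members past 2-fold and those with the largest and smallest log2 ratio of each role, for the stage and class comparisons. Related genes were counted from 2 lists in 4 comparisons and those past 2-fold named there; any other was chosen after its values were seen. In the subclusters the members past 2-fold were named, and the others given there were chosen after their values were seen. The lists' counts in the other comparisons and some related genes are not reported here. Alternatives were TMM scaling (edgeR 4.0.16) and size factors (DESeq2 1.42.0) in R 4.3.3, other pseudocounts and filters, other totals and other cells. Python 3.11.15, numpy 2.4.6, pandas 2.3.3 and scipy 1.17.1 did the rest. Gene positions came from GENCODE v29 and promoters from RefSeq, matched by symbol (25 of 29 members).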

Additional observations from a re-analysis of the deposited data

Results flagged for a closer look

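In 2 of the 28 members compared, the placode clusters differed from the ENCCs in opposite directions at the 2 stages, with counting intervals on either side of equal levels. SQLE was lower in CP at day 10 (81.0 against 101 CPM, log2 -0.31) and higher in CP1 at day 15 (176 against 86.1 CPM, log2 1.02). ACACA was lower in CP at day 10 (9.97 against 17.0 CPM, log2 -0.71) and higher in CP1 at day 15 (18.4 against 11.6 CPM, log2 0.63). The difference between the stages was not tested, since each stage had 1 library, and CP and CP1 were named by separate clusterings. The 2 clusters also differ in their ENCC markers, which summed to 597 CPM in CP and 142 CPM in CP1. Of the 26 members compared in the cells labelled NEP, 0 showed such a reversal.

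The cells that the authors removed carried signal of the members outside the class comparisons. Their summed level was 1630 CPM (1609 to 1650) in 2332 cells at day 10 and 1717 CPM (1700.0 to 1733) in 984 cells at day 15, against 1791 and 1267 CPM in the kept cells. The removed day 15 cells had a median of 21367 UMIs and 159.7 CPM of HMGCS1, above the 84.4 CPM of the kept cells. Their part in the whole-library values was not tested beyond the kept cells alone.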

How the results depend on the processing

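No paired analysis was possible because each stage had 1 library and no result comes from a test. Of 219 alternative values of the counts, ratios and shares, 158 stayed within 1.5 times the count given or within the counting interval and 61 moved. Of 2452 alternative log2 ratios of single members, 2033 stayed within the counting interval, and 0 of those reported past 2-fold changed sign. With size factors or TMM scaling the ratio of the summed members between stages within ENCCs was 0.714 and 0.717, against 0.630. It was 0.577 in G1 cells, 0.619 in numbered ENCCs and 0.639 without the 6% of cells with the most UMIs. The members past 2-fold lower in ENCCs at day 15 were 9, and 5 with a pseudocount of 5 CPM or with a mean of at least 20 CPM. Over whole libraries 1 was higher, 2 with TMM or size factors and 0 with kept cells. There 4 were lower, 3 with TMM or size factors and 6 with kept cells.

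TMM and size factors gave the same counts in the classes. In NEP at day 10 they gave 9 lower against 2, other totals (without ribosomal and mitochondrial genes) 8, a mean of at least 20 CPM 1, and 4 without the deepest cells; at that filter 1 was higher. In CP, higher counts were 1 with a pseudocount of 5 CPM, 0 with a mean of at least 20 CPM and 4 in G1 cells, where 1 was lower. In NNE 1 was higher at that filter, and 1 lower by TMM or size factors and 2 by other totals. In CP1 8 were higher by TMM or size factors and 9 by other totals, against 16. In the cluster labelled CP2 1 was higher and 6 lower by all 3, and lower counts were 0 with a pseudocount of 5 CPM or a mean of at least 20 CPM and 1 in G1 cells or by the mean of each cell's CPM. In the cluster labelled NEP 16 were lower by TMM or size factors, 11 by other totals and 4 at a mean of at least 20 CPM, against 7. In Mes 4 were higher by TMM or size factors, 5 at that filter, and 2 lower in G1 cells. Relative to the median of all genes the members' median moved by at most 0.1 in these scalings.

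The pairs of a member and a subcluster past 2-fold at day 10 were 0 with a pseudocount of 5 CPM or a mean of at least 20 CPM, against 2, and at day 15 they were 6 at that filter and 17 in G1 cells, against 11. The filter drops genes by construction. For the other moves the cause was not tested.

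Shares of cells rise with depth. For HMGCS1 and INSIG1 at day 10 they were 22.6% and 25.7% at 5000 UMIs, 30.9% and 34.8% without thinning, and 1.65% and 2.13% for at least 2 UMIs. At day 15 they were 29.7% and 7.50% at 5000 UMIs, 48.8% and 16.7% without thinning, and 3.02% and 0.142% for at least 2 UMIs. The order of the stages was the same in each. The 3 smallest classes of day 15 rest on few UMIs, and several of their members had counts under 10.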
